A study of Mus musculus with 4 samples.

Results

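The replication-dependent histone genes were followed here in CD4 T cells, taken as the 67 genes whose symbol starts with Hist1h, Hist2h, Hist3h or Hist4h among the 31053 genes of the count tables. By class, 6 of them encode H1 linker histones, 18 H2a, 18 H2b, 12 H3 and 13 H4. The cells were TS1 Tg CD4 T cells sorted from mice with graft-versus-host disease (GVHD), 4 weeks post-transplantation, and the labelled strain is BALB/c RAG2-/- TS1 Tg. TS1 is a T cell receptor transgene, and RAG2 is needed to rearrange any other receptor. In each of 2 replicates, cells from 5 compartments (spleen, colon, skin, and the intraepithelial and lamina propria layers of the small intestine) were pooled into 1 droplet library. There was no untreated group, and no cell could be given a tissue, because the hashtag tables held 0 hashtag features. Whether each replicate had its own animals is not in the labels, and the p-values may then measure technical spread only. The comparisons are therefore between cells of the same libraries, split by cell cycle genes (Mki67, Mcm3) and by T cell genes (Gzma, Tcf7, Itgae).

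These genes supply the histones that package new DNA. They lie in clusters, mostly have no intron, and are transcribed mainly while DNA is copied in S phase. In most animals their mRNAs end in a conserved stem-loop rather than a poly(A) tail. The stem-loop-binding protein SLBP binds this end and guides its processing, export and decay. The library chemistry primes on poly(A), so the unique molecular identifiers (UMIs) counted here report histone RNA that could be primed in this way, and the share of histone mRNA that was missed is unknown. T cells that divide after meeting antigen are a setting in which S phase genes are commonly followed.

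The annotated transcript ends of the members showed both forms. In GENCODE M21 on mm10, all 67 members were found by gene identifier and 63 had a single exon. A fixed sequence pattern of the stem-loop was matched in a transcript of 42. Of these 42, 20 ended within 60 bases of the stem-loop and 22 ran further, 10 of them with a poly(A) signal in the last 40 bases. The other 25 models held no match, and a stem-loop that departs from the pattern would be missed. Several of these stop close to the coding region (3 bases after it for Hist1h2ak). Others run further (745 bases for Hist1h2bc). Their true ends are not described. The sites below are those of abundant members or members called in a comparison. Capitals mark the stem-loop, 6 stem bases, 4 loop bases and 6 stem bases again.
Hist1h2ap, chr13:21833026-21833051, minus strand: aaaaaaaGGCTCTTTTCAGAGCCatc
Hist1h2ae, chr13:23570661-23570690, minus strand: aaacaaaGGCTCTTTTCAGAGCCattcact
Hist1h3c, chr13:23745040-23745069, minus strand: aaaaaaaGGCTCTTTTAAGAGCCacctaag
Hist1h4d, chr13:23581943-23581972, plus strand: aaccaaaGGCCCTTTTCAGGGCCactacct
Hist2h2ac, chr3:96220411-96220440, minus strand: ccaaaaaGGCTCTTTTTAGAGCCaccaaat
Hist1h1e, chr13:23621775-23621804, minus strand: acccaaaGGCTCTTTTCAGAGCCacccaca
Hist1h1c, chr13:23739505-23739534, plus strand: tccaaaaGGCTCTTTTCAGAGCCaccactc
Hist4h4, chr6:136803991-136804020, minus strand: ccacaaaGGCCCTTTTCAGGGCCcacaaag
The annotated Hist1h2ap transcript stopped 3 bases after its stem-loop, while that of Hist1h2ae went on for 151 bases and that of Hist1h1c for 840, both with a poly(A) signal. The Hist4h4 transcript went on for 2445 bases, also with a signal. The H4 sites shown differ from the H1 and H2a sites inside the stem.

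Library 2 held more UMIs than library 1, in total and per T cell. Library 1 (replicate 1) held 89427990 UMIs and library 2 (replicate 2) held 108082997. After the filters of at least 1000 UMIs, at least 500 genes and at most 10% mitochondrial UMIs, 19020 and 15898 cells remained. Requiring a UMI of Cd3e, Cd3d or Cd3g left 18972 and 15857 T cells, with medians of 2689 and 3702 UMIs, so that rule removed few cells. All 9 fixed T cell markers were detected in both, among them the Cd3 genes that made the rule. Pooled detection does not set T cells apart, because all 8 neutrophil-lineage markers were detected as well. The T cell markers summed to 12486 and 12183 UMIs per 1000000. Markers of other cells were present too: the 8 neutrophil-lineage markers summed to 3177 and 5660 UMIs per 1000000 (CPM) among the T cells. A total of 578 T cell barcodes passed in both libraries. Shares and splits use 15260 and 14839 T cells with at least 1500 UMIs, each thinned at random to 1500.

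Histone UMIs were few and came from a handful of genes. Members made up 4.64 UMIs per 10000 in library 1 and 5.79 in library 2, and 61 of the 67 had at least 1 UMI. Over both libraries 48 members had at least 100 UMIs, 14 had at least 1000, and the top 5 held 66.7% of all member UMIs. H2a genes gave 38.1% and 50.9% of member UMIs, H1 genes 34.7% and 27.2%, H2b genes 10.4% and 8.43%, H4 genes 9.90% and 7.95%, and H3 genes 6.91% and 5.50%. The Hist1 cluster on chromosome 13, with 54 members, held 89.3% and 90.9% of member UMIs. The Hist2 cluster on chromosome 3 has 10 members, Hist3 on chromosome 11 has 2, and Hist4h4 stands alone on chromosome 6.

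The level of each leading member, as UMIs counted near the transcript's end with no correction for length, was as follows in libraries 1 and 2. Hist1h2ap, an H2a gene, had 66.1 and 168 CPM. Hist1h2ae, also H2a, had 76.5 and 92.6 CPM. Hist1h2ap was thus 2.55 times higher in library 2 than in library 1, while 45 of the 48 members with at least 100 UMIs differed by under 1.5 times. Hist1h1b, a linker histone gene, had 61.1 and 53.6 CPM. Hist1h1c had 49.4 and 52.8 CPM, and Hist1h1e had 36.5 and 36.5 CPM. Hist1h2ap and Hist1h2ae changed places between the libraries, and Hist1h1b and Hist1h1c were close in library 2, so neither pair can be put in order. The leading H4 gene, Hist1h4d, had 13.0 and 13.2 CPM. The leading H2b gene, Hist1h2bc, had 9.81 and 10.2 CPM. The leading H3 gene, Hist1h3c, had 7.41 and 6.38 CPM. Members with little sequence of their own are uncertain, because counting can lose or split their reads. For 30 members, over 50% of their 50-base windows occurred in other members. The share was 93.1% for Hist1h2ap, and Hist1h2ao held the most of these windows. For Hist1h1e it was 32.0%, and the overlapping Hist1h2be model held the most.

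**Figure D1:**
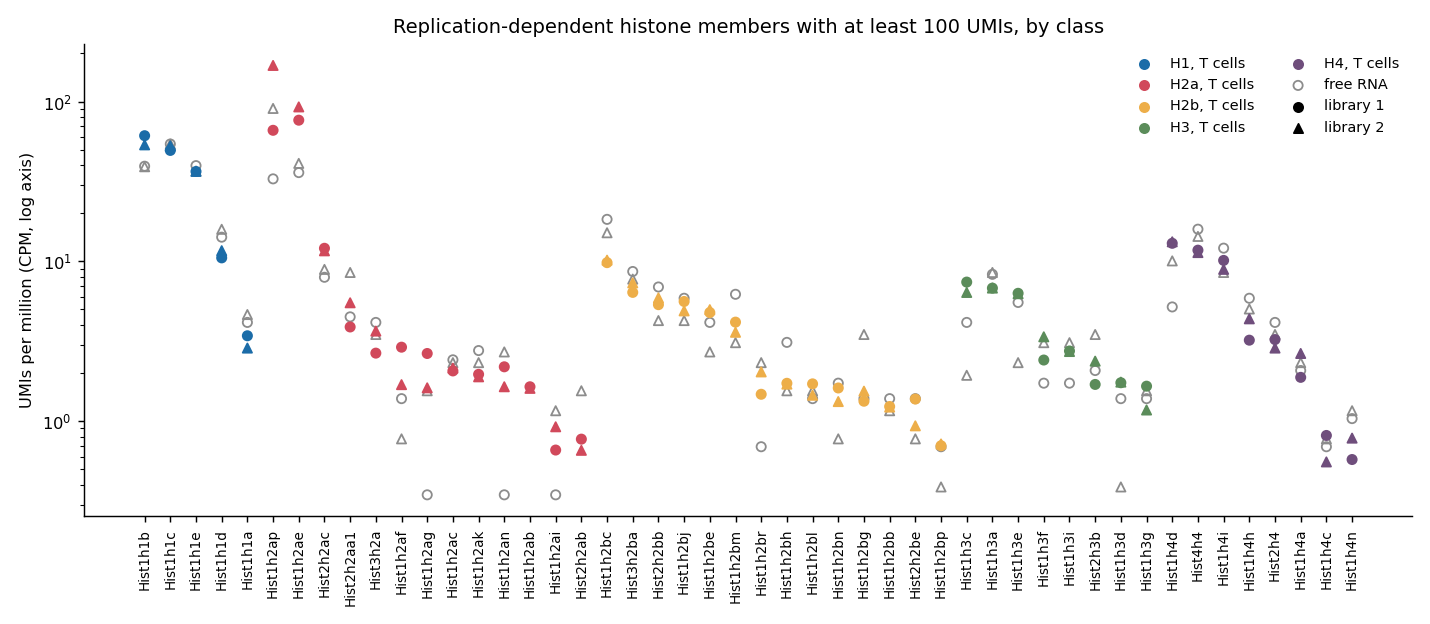
Level of the 48 members with at least 100 UMIs (vertical axis, CPM on a log scale), grouped by class, in T cells (filled) and in free RNA from barcodes under 100 UMIs (open), with circles for library 1 and triangles for library 2. Hist1h2ap and Hist1h2ae lie highest, and Hist1h2ap is the abundant member whose libraries lie apart (66.1 and 168 CPM).

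The 6 members without a UMI were Hist1h1t, Hist1h2aa, Hist1h2ba, Hist1h2bq, Hist1h4m and Hist2h2aa2. Hist1h1t, Hist1h2aa and Hist1h2ba are known as testis histone genes, and at most 38.2% of their windows occurred in another member. Hist2h2aa2, Hist1h2bq and Hist1h4m shared 100%, 97.3% and 89.8% of their windows with other members, so a count of 0 says little about them.

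Free RNA, read from barcodes with under 100 UMIs, carried histone UMIs as well. Members made up 4.64 and 5.79 UMIs per 10000 in T cells, against 3.84 and 4.38 in free RNA. These T cell values pool all UMIs, so deeper cells weigh more. Thinned cells held 3.28 and 3.86 per 10000, below free RNA, and the same cells without thinning 4.74 and 5.81. The excess over free RNA was thus seen only without thinning. The member levels below also pool all UMIs and were not compared with free RNA after thinning. With UMIs pooled, both leading H2a genes were higher in T cells, with Hist1h2ap at 66.1 and 168 CPM in T cells and 32.8 and 90.6 CPM in free RNA. Hist1h2ae was at 76.5 and 92.6 CPM in T cells and at 35.9 and 41.0 CPM in free RNA. Hist1h1c was slightly lower in T cells, with 49.4 and 52.8 CPM against 54.2 and 54.2 CPM in free RNA. Of the 48 members with at least 100 UMIs, 26 and 24 were higher in free RNA than in T cells. The levels of sparse members therefore cannot be read as expression in a given cell.

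Histone UMIs were concentrated in few cells. After thinning, 71.1% and 68.1% of cells had no histone UMI, and the highest counts in a cell were 16 and 26. Cells with 5 or more histone UMIs were 224 of library 1 (1.47%) and 365 of library 2 (2.46%), yet they held 19.0% and 30.4% of all histone UMIs. Their histone UMIs were 44.6% and 60.9% H2a, against 20.7% and 27.1% in cells with a single histone UMI. H1 made up 29.0% and 21.5% of histone UMIs in those histone-high cells, against 41.1% and 38.2% in cells with a single histone UMI.

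Cells rich in histone UMIs also held cell cycle transcripts. Mki67, which encodes the proliferation antigen Ki-67, had a UMI in 38.4% of the library 1 cells with 5 or more histone UMIs (exact 95% binomial interval 32.0 to 45.1) and in 34.8% of those in library 2 (29.9 to 39.9). In cells without a histone UMI it was found in 3.22% (2.90 to 3.57) and 3.25% (2.91 to 3.61). Mcm3, a subunit of the replicative helicase, had a UMI in 17.0% (12.3 to 22.5) and 18.1% (14.3 to 22.4) of histone-high cells, against 6.45% (5.99 to 6.93) and 5.62% (5.18 to 6.09). Top2a, the topoisomerase of dividing cells, had a UMI in 62.5% (55.8 to 68.9) and 68.8% (63.7 to 73.5), against 10.0% (9.48 to 10.6) and 9.26% (8.70 to 9.84). In none of these 3 genes did the intervals of the 2 ends overlap in either library. The intervals cover counting error only.

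**Figure D2:**
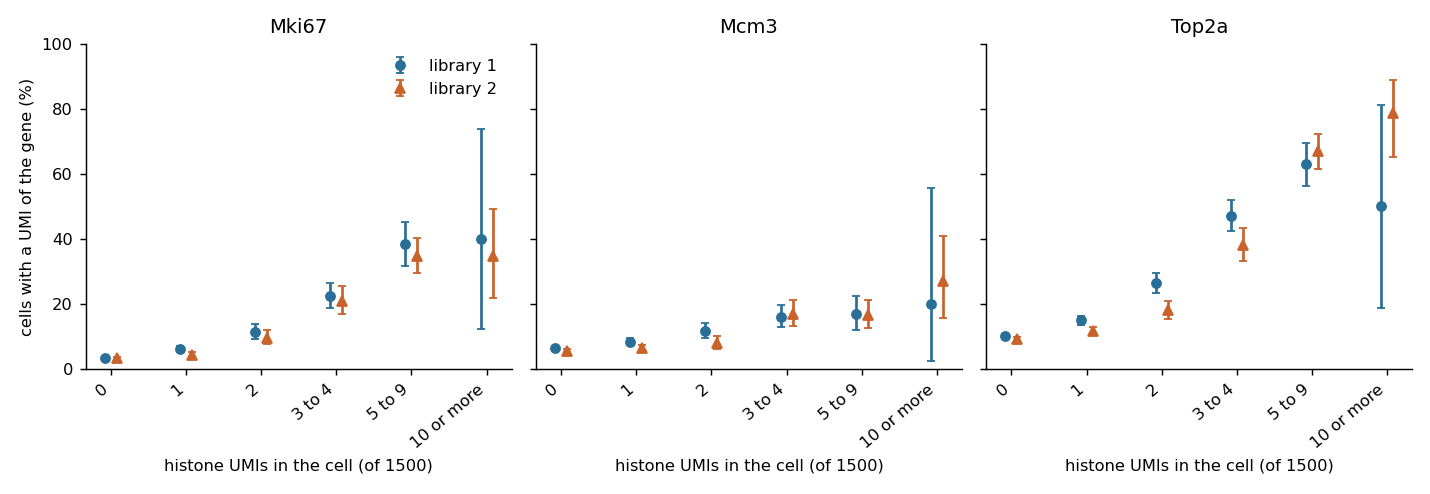
Share of cells with a UMI of Mki67, Mcm3 or Top2a (vertical axis, percent) by the number of histone UMIs in the cell (horizontal axis), with exact 95% binomial intervals, for library 1 (circles) and library 2 (triangles). The shares climb over the first bins, for Mki67 to 38.3% and 34.8% in cells with 5 to 9 histone UMIs. The last bin of library 1 holds only 10 cells.

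Several of the leading members were found together in the same cells. Hist1h2ae had a UMI in 34.8% and 32.9% of cells with a Hist1h2ap UMI, against 3.42% and 2.97% of cells without. For Hist1h1b these shares were 25.9% and 22.8%, against 3.00% and 2.16%. For Hist1h1e they were 14.9% and 13.2%, against 3.47% and 3.27%. Hist1h1c was found in 5.83% and 6.57% of cells with a Hist1h2ap UMI, against 6.66% and 7.38% of cells without. Hist1h2bc was found in 1.89% and 1.10% of cells with a Hist1h2ap UMI, against 1.27% and 0.853% of cells without, on 11 cells with both in each library. Hist1h1c was found in 17.2% and 17.8% of cells with a Hist1h2bc UMI, against 6.49% and 7.23% of cells without. Thinning gave every cell the same number of UMIs, but the cells differed in depth before it. Whether these shares follow that depth was not tested, and no doublet caller was run.

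Cells with a Mki67 UMI (808 of library 1 and 748 of library 2) carried 10.4 and 13.0 histone UMIs per 10000, against 2.88 and 3.37 in cells without (14452 and 14091). The ratio was 3.597 and 3.870. H2a genes showed the widest gap, with 4.63 and 7.65 per 10000 against 0.772 and 1.19, a ratio of 5.99 and 6.41. H3 genes had 0.875 and 0.749 against 0.195 and 0.207, a ratio of 4.49 and 3.61. For H1, H2b and H4 genes the ratio lay between 1.96 and 2.73. Every class was higher in both libraries. Before thinning, Mki67-detected cells also had more UMIs, with medians of 4333 and 6276.5 against 3113 and 3809.

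In the edgeR quasi-likelihood test on sums per library, 28 members rose in Mki67-detected cells and 1 fell, of 48 members with enough counts to be tested. The 1 that fell, Hist1h1c, did not pass in 4 of the alternative settings described with its values. Over all 11227 genes tested, 9.74% rose and 6.06% fell, and the median log2 fold change was 1.76 over the tested members and -0.01 over all genes. By class, 11 of 14 H2a genes rose, 6 of 8 H3 genes, 5 of 14 H2b genes, 4 of 5 H1 genes and 2 of 7 H4 genes. The log2 fold changes of the 28 lay between 0.86 and 3.22.

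Among H2a genes, Hist1h2ap had 190 and 450 CPM in Mki67-detected cells, against 23.9 and 59.0 CPM in undetected cells (log2 fold change 2.93 ± 0.09 SE, edgeR adjusted p = 5.19e-242). Hist1h2ae had 188 and 238 CPM, against 32.4 and 37.2 CPM in undetected cells (2.59 ± 0.10, edgeR adjusted p = 7.2e-147). The library sums of detected and undetected cells did not overlap for either gene. The Hist1h2ap level in library 1 stayed below that in library 2 in both kinds of cell. Hist2h2ac, of the Hist2 cluster, had 23.9 and 32.1 CPM, against 6.97 and 7.19 CPM in undetected cells (1.96 ± 0.25, edgeR adjusted p = 1.94e-13). The sparse Hist1h2ab, with 4.13 and 5.35 CPM against 0.600 and 0.379 CPM, had the largest fold change of all members (3.22 ± 0.74, edgeR adjusted p = 0.000201). Hist1h2an, Hist1h2ak, Hist1h2ai and Hist1h2ad rose by 2.71 to 3.00 on the log2 scale. Hist1h2ad rested on 5 UMIs in detected cells and 11 in undetected cells over both libraries (ratio 8.34, exact 95% interval 2.27 to 26.03), and Hist1h2ai on 6 and 14 (7.86, 2.48 to 21.8). Neither passed with DESeq2.

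Among linker histones, Hist1h1b had 147 and 136 CPM in Mki67-detected cells, against 24.5 and 22.9 CPM in undetected cells (2.56 ± 0.11, edgeR adjusted p = 2.44e-105). Hist1h1e had 80.9 and 88.3 CPM, against 25.2 and 25.4 CPM (1.72 ± 0.13, edgeR adjusted p = 1.07e-35). Hist1h1d and Hist1h1a also rose. Hist1h1c had 46.2 and 37.4 CPM in Mki67-detected cells, against 54.8 and 60.6 CPM in undetected cells (-0.47 ± 0.15, edgeR adjusted p = 0.0115), lower in both libraries. This fall did not pass with DESeq2 (adjusted p = 0.272), without the replicate block (edgeR adjusted p = 0.106), with cells thinned to 1000 UMIs (-0.34, edgeR adjusted p = 0.333) or in a second random thinning (-0.12, edgeR adjusted p = 0.678), so it depends on the settings.

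Among H3 genes, Hist1h3c had 19.8 and 23.2 CPM in Mki67-detected cells, against 2.86 and 2.18 CPM in undetected cells (3.07 ± 0.33, edgeR adjusted p = 4.07e-19). Hist1h3g had 7.43 and 4.46 CPM, against 0.646 and 0.852 CPM (2.97 ± 0.63, edgeR adjusted p = 4.14e-05). Hist1h2bl, an H2b gene, had 7.43 and 3.57 CPM, against 0.877 and 0.521 CPM (2.94 ± 0.65, edgeR adjusted p = 0.000109). The most abundant H2b gene, Hist1h2bc, did not pass (0.34 ± 0.32, edgeR adjusted p = 0.578), while Hist1h2br (2.55 ± 0.60, edgeR adjusted p = 0.000273) did. Among H4 genes, Hist1h4d had 28.9 and 27.6 CPM, against 8.35 and 8.80 CPM (1.70 ± 0.24, edgeR adjusted p = 2.29e-11). Hist4h4, the single gene outside the clusters, did not pass (0.53 ± 0.26, edgeR adjusted p = 0.167).

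**Figure D3:**
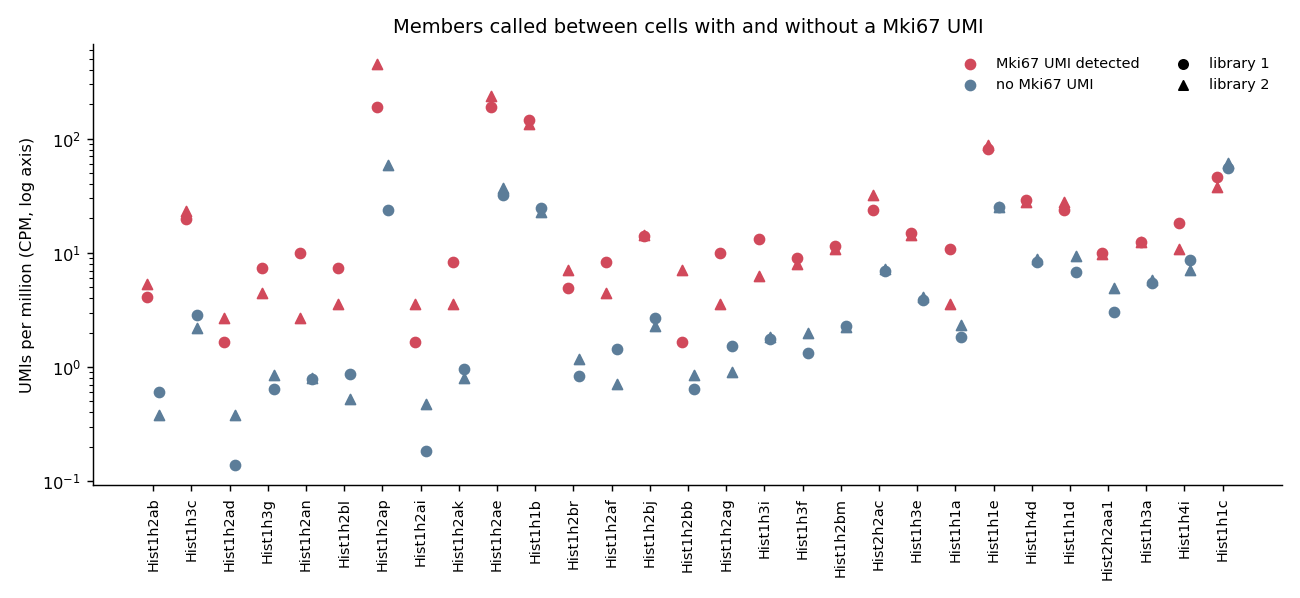
Level of the 29 called members (vertical axis, CPM on a log scale) in cells with a Mki67 UMI (red) and without (blue), with circles for library 1 and triangles for library 2, ordered by fold change. Red lies above blue in both libraries for the 28 members that rose, and Hist1h1c at the right end is the member that fell, a call that 4 of the alternative settings did not make.

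Markers of other cells moved with this split, and their part in it was not tested beyond 1 alternative. The summed neutrophil-lineage markers were 2500 and 3543 CPM in Mki67-detected cells, against 1529 and 2594 CPM in undetected cells, with all 8 markers above 0 in each group. The 8 erythroid markers summed to 87.5 and 234 CPM, against 124 and 144 CPM. The 9 T cell markers summed to 11225 and 11225 CPM, against 13233 and 13052 CPM. Without the cells in which other-lineage markers exceeded 0.5% of UMIs, 30 members passed in place of 29. If every UMI of a cell were free RNA, 8.15% and 7.59% of cells would show a Mki67 UMI, and the observed shares were 5.29% and 5.04%. Single UMIs of Mki67 are therefore no proof of a dividing cell, though the share differed between histone bins as given above.

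The calls were read against the annotated ends. Of the 13 tested members that end near the stem-loop, 10 rose with Mki67 detection. Of the 10 tested members that extend past it without a poly(A) signal, 6 rose. Of the 8 that extend past it with a signal, 2 rose, and Hist1h1c was the 1 that fell, in the settings where its fall passed. Of the 17 tested members without a match to the stem-loop pattern, 10 rose. The median log2 fold change of the tested members was 2.28 for ends near the stem-loop and 2.42 for models without a match. It was 1.71 for extended ends without a signal and 0.49 for extended ends with a signal. These groups are small and differ in abundance, and no test was made of the difference.

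Promoters were compared because members rose together. A RefSeq promoter of 250 bases before to 50 bases after the start (GRCm38.p6) matched 61 members. Of these, 52 held CCAAT on either strand, against 37.4% of all 32851 promoters in the table. TATAAA was in 35 of the 61, against 13.6% of all promoters. The octamer ATTTGCAT, known from H2b promoters, was in 13, namely 7 of 17 H2a genes and 6 of 16 H2b genes, against 1.74%. Some H2a and H2b genes, such as Hist1h2ae and Hist1h2bg, lie head to head, so their promoter windows overlap. The same site can then count for both genes, and these counts of members are not counts of separate sites. AAACACA, an element known from linker histone promoters, was in 9, of which 5 were H1 genes, against 7.18%. The promoters of Hist1h2ae and Hist1h1b, which rose, and Hist1h1c, which was not called higher in any setting, are shown with these motifs in capitals on either strand.
Hist1h2ae, chr13:23571171-23571470, minus strand: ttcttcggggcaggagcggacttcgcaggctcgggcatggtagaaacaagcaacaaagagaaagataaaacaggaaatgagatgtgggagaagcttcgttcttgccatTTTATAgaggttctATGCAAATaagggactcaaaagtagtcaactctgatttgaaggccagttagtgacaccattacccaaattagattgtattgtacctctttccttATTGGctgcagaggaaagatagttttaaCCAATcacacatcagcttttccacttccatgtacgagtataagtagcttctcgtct
Hist1h1b, chr13:21780576-21780875, minus strand: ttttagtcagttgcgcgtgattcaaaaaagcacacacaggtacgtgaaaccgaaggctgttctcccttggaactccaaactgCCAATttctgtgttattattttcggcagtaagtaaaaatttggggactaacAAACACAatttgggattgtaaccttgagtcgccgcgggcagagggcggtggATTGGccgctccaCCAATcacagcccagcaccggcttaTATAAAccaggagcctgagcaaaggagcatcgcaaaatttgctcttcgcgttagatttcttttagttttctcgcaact
Hist1h1c, chr13:23738557-23738856, plus strand: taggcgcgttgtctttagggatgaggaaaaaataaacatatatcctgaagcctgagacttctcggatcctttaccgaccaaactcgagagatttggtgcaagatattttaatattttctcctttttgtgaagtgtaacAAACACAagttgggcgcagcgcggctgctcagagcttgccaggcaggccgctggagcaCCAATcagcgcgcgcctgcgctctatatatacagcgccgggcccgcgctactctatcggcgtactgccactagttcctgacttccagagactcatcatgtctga
CCAAT was present in 24 of the 25 matched members that rose with Mki67 detection and in 14 of the 17 that were tested and did not rise. Hist1h1b and Hist1h1c both held CCAAT and AAACACA. The Hist1h2ae window also covers the start of Hist1h2bg, an H2b gene on the plus strand from position 23571396. The TATAAA and octamer matches marked there read on the plus strand and lie nearer to the Hist1h2bg start. They cannot be assigned to Hist1h2ae. A match of letters is a description and says nothing of binding.

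Other genes of histone supply were read from fixed lists. Of 10 replication-independent histone genes, which are transcribed outside S phase as well, 6 rose with Mki67 detection and 0 fell. H2afx, whose product marks DNA breaks when phosphorylated, had 494 and 446 CPM in Mki67-detected cells, against 124 and 99.05 CPM (2.06 ± 0.06, edgeR adjusted p = 3.5e-215). H2afz, another H2A variant, rose by 1.19 ± 0.04, and Cenpa, the centromere H3 variant, by 1.69 ± 0.08 on the log2 scale. H3f3a, an H3.3 gene, rose by 0.34 ± 0.05, and H3f3b, the other H3.3 gene, did not pass (-0.04 ± 0.04, edgeR adjusted p = 0.585). Of 16 tested genes of histone mRNA processing and transcription, 6 rose and 0 fell. Slbp had 345 and 349 CPM, against 223 and 203 CPM (0.68 ± 0.06, edgeR adjusted p = 2.95e-24). E2f1, a transcription factor of S phase entry, rose by 1.41 ± 0.19. Npat, the coactivator of histone genes, did not pass (0.65 ± 0.30, edgeR adjusted p = 0.142).

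Of 18 histone chaperones and carriers, 13 rose with Mki67 detection and 0 fell. Asf1b, a carrier of H3 and H4, had 192 and 163 CPM in Mki67-detected cells, against 52.6 and 34.9 CPM (2.01 ± 0.10, edgeR adjusted p = 1.09e-86). Chaf1a, a subunit of the chromatin assembly factor, rose by 1.78 ± 0.20, Hells, a chromatin remodeller, by 1.203 ± 0.129, and Nasp, a histone carrier, by 0.84 ± 0.12. All 20 genes of DNA replication and all 16 of mitosis rose, with median log2 fold changes of 1.21 and 2.60. Rrm2, which makes deoxynucleotides, had 663 and 529 CPM, against 133 and 83.6 CPM. Cenpf, a kinetochore gene, had 198 and 194 CPM, against 27.6 and 19.7 CPM.

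Cells with a Mcm3 UMI (1150 and 965) carried 5.42 and 7.13 histone UMIs per 10000, against 3.11 and 3.63 in cells without (14110 and 13874). Of 42 tested members 11 rose and 1 fell, where 8.9% of all 11344 genes rose and 4.86% fell. By class, 4 of 10 H2a genes, 3 of 5 H1 genes, 3 of 8 H3 genes, 1 of 13 H2b genes and 0 of 6 H4 genes rose. The median log2 fold change was 0.76 over the tested members and -0.02 over all genes. With DESeq2, 6 members rose and 1 fell, and with cells thinned to 1000 UMIs 5 rose and 0 fell (by edgeR), of which 3 are among the 12 called above.

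Hist1h2ap had 88.1 and 215 CPM in Mcm3-detected cells, against 28.2 and 69.3 CPM in undetected cells (1.64 ± 0.09, edgeR adjusted p = 5.47e-08). Hist1h1b had 77.1 and 76.0 CPM, against 27.3 and 25.3 CPM (1.55 ± 0.12, edgeR adjusted p = 1.33e-06). Hist1h3a had 16.2 and 13.8 CPM, against 4.96 and 5.62 CPM (1.52 ± 0.25, edgeR adjusted p = 0.00121). These 3 genes were higher in detected cells of both libraries. The largest fold change was that of Hist1h3g, on 5 and 7 UMIs in detected cells against 18 and 16 in undetected cells (2.22 ± 0.58, edgeR adjusted p = 0.0227), and it did not pass with DESeq2. Hist1h2bm (1.90 ± 0.36), Hist1h2ag (1.75 ± 0.51), Hist1h3c (1.68 ± 0.32), Hist1h1a (1.53 ± 0.40) and Hist1h2ae (1.48 ± 0.10) rose too. Hist1h1c fell, with 32.5 and 39.4 CPM against 56.1 and 60.8 CPM in undetected cells (-0.70 ± 0.12, edgeR adjusted p = 0.00171), which did not pass with cells thinned to 1000 UMIs (-0.41, edgeR adjusted p = 0.0919). Hist1h1e did not pass (0.39 ± 0.15, edgeR adjusted p = 0.105), nor did Hist1h4d (0.22 ± 0.26, edgeR adjusted p = 0.657).

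From the fixed lists, Slbp had 369 and 345 CPM in Mcm3-detected cells, against 218 and 201 CPM in undetected cells (0.77 ± 0.05, edgeR adjusted p = 6.12e-07). In all, 6 of 16 genes of histone mRNA processing and transcription rose, among them Casp8ap2, known as FLASH and a partner in histone pre-mRNA cleavage (0.73 ± 0.12), and E2f1 (2.02 ± 0.15). Of 10 replication-independent histone genes, 6 rose and 1, H3f3b, fell (-0.11 ± 0.03, edgeR adjusted p = 0.0414). Of 18 chaperones and carriers 13 rose, and Chaf1a (1.61 ± 0.18), Asf1b (1.59 ± 0.10) and Hells (1.49 ± 0.11) had the largest changes. All 20 genes of DNA replication rose, with a median of 1.42, and all 16 of mitosis, with a median of 1.11.

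Setting both markers together gave 4 kinds of cell. Cells with both UMIs (118 and 110) carried 14.1 and 16.4 histone UMIs per 10000. Cells with Mki67 only (690 and 638) carried 9.73 and 12.5, cells with Mcm3 only (1032 and 855) carried 4.43 and 5.93, and cells with neither (13420 and 13236) carried 2.76 and 3.21. The order was the same in both libraries for all members together and for H1, H2a and H3 genes. H2b and H4 genes kept it below the first step, but their cells with both UMIs lay above those with Mki67 only in 1 library and below them in the other. The cells with both UMIs were few.

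**Figure D4:**
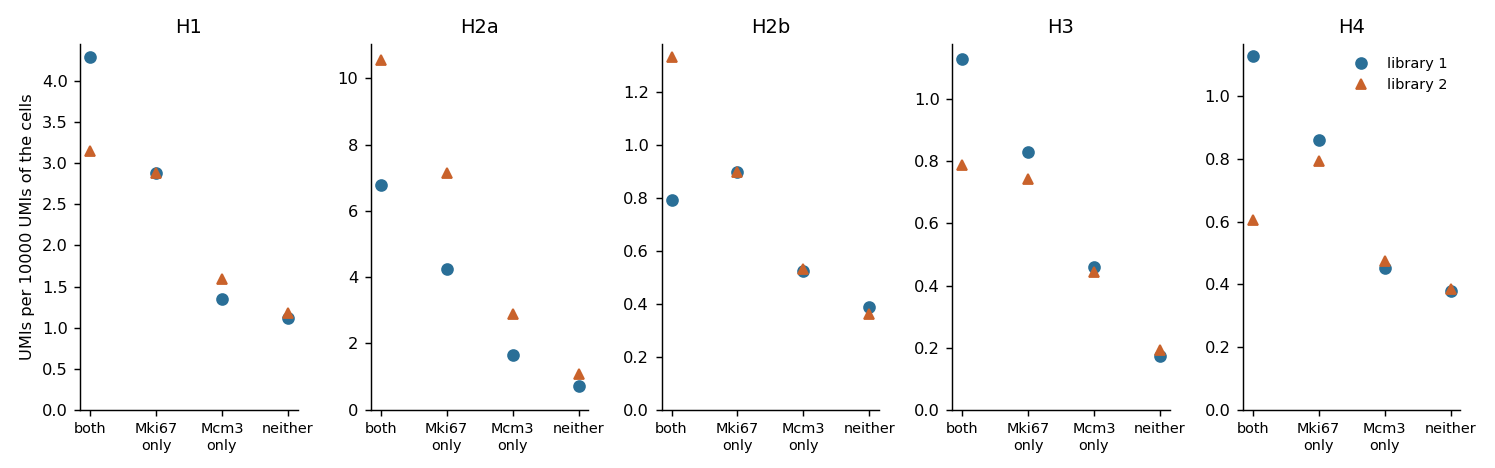
Histone UMIs per 10000 UMIs (vertical axes, which start at 0 and differ in range) of each class in cells with a UMI of both Mki67 and Mcm3, of Mki67 only, of Mcm3 only and of neither, for library 1 (circles) and library 2 (triangles). H2a genes span 6.78 and 10.5 in cells with both down to 0.705 and 1.08 in cells with neither.

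Between Mcm3-only and Mki67-only cells, 0 of 18 tested members rose and 8 fell by edgeR, with 13 at an unadjusted p under 0.05, where 1.88% of all 7753 genes rose and 3.15% fell. Hist1h2ap had 63.9 and 159 CPM in Mcm3-only cells, against 171 and 416 CPM in Mki67-only cells (-1.38 ± 0.11, edgeR adjusted p = 1.72e-33). Hist1h1e had 31.7 and 25.0 CPM, against 78.3 and 85.7 CPM (-1.50 ± 0.20, edgeR adjusted p = 2.28e-12). Hist1h4d had 10.3 and 7.80 CPM, against 28.0 and 29.3 CPM (-1.62 ± 0.33, edgeR adjusted p = 6.96e-05). Each of these was lower in the Mcm3-only cells of both libraries. Hist1h2ae, Hist1h1b, Hist1h3c, Hist1h2bj and Hist2h2ac fell by 1.06 to 1.44 on the log2 scale. Hist1h1c did not pass, with 29.7 and 42.9 CPM against 44.4 and 41.8 CPM (-0.25 ± 0.21, edgeR adjusted p = 0.683). Without the replicate block 5 members fell, and with DESeq2 3 fell. In the same comparison all 16 mitosis genes fell, and of 20 genes of DNA replication 7 rose and 3 fell. The neutrophil-lineage markers summed to 977 and 1876 CPM in Mcm3-only cells, against 2863 and 4009 CPM in Mki67-only cells. Their part was not tested beyond leaving out cells rich in other-lineage markers, after which 8 members still passed.

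T cells were next split by Gzma, which encodes the cytotoxic protease granzyme A, at 1% of a cell's UMIs. The totals hardly differed: 3.27 and 3.89 histone UMIs per 10000 in Gzma-high cells (6208 and 5418), against 3.28 and 3.84 in Gzma-low cells (9052 and 9421). The classes moved apart. H2a genes had 1.11 and 1.77 per 10000 in Gzma-high cells, against 0.886 and 1.37 in Gzma-low cells. H2b genes had 0.344 and 0.298, against 0.480 and 0.463, and H4 genes had 0.343 and 0.316, against 0.460 and 0.465. Of 43 tested members 3 rose and 7 fell, where 21.7% of all 11414 genes rose and 22.6% fell. With DESeq2 3 rose and 3 fell.

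Hist1h1b had 42.4 and 35.3 CPM in Gzma-high cells, against 23.2 and 24.7 CPM in Gzma-low cells (0.74 ± 0.10, edgeR adjusted p = 1.27e-05). Hist1h2ap had 40.7 and 94.9 CPM, against 27.2 and 69.4 CPM (0.54 ± 0.07, edgeR adjusted p = 1.16e-05), and without the replicate block it did not pass. Hist1h2ae had 48.0 and 58.2 CPM, against 35.6 and 41.1 CPM (0.51 ± 0.08, edgeR adjusted p = 3.37e-05). All 3 were higher in the Gzma-high cells of each library.

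Hist1h2bc fell, with 6.45 and 2.83 CPM in Gzma-high cells against 13.3 and 9.48 CPM in Gzma-low cells (-1.24 ± 0.19, edgeR adjusted p = 6.93e-05). Hist4h4 fell, with 8.16 and 7.51 CPM against 14.8 and 15.4 CPM (-0.90 ± 0.15, edgeR adjusted p = 0.000118). With UMIs pooled over all T cells, both genes were lower than in free RNA. Hist1h2bc had 9.81 and 10.2 CPM in T cells and 18.3 and 15.1 CPM in free RNA. Hist4h4 had 11.7 and 11.3 CPM in T cells and 15.9 and 14.3 CPM in free RNA. The part of free RNA in these falls was not tested. Hist2h2bb (-1.07 ± 0.22), Hist1h3a (-0.94 ± 0.21), Hist2h4 (-0.75 ± 0.28) and Hist1h1d (-0.47 ± 0.17) fell as well. Hist1h4c had 3 UMIs in Gzma-high cells over both libraries, against 31 in Gzma-low cells, a ratio of 0.154 (exact 95% interval 0.0301 to 0.493). Hist1h1c did not pass (-0.08 ± 0.07, edgeR adjusted p = 0.396). Among the fixed lists, H1f0, a linker histone gene active outside S phase, fell, with 39.96 and 33.85 CPM against 80.7 and 67.7 CPM (-0.96 ± 0.07). Slbp rose (0.47 ± 0.05), as did 15 of 16 mitosis genes and 13 of 20 genes of DNA replication.

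The Gzma groups differed in more than Gzma. The neutrophil-lineage markers summed to 678 and 665 CPM in Gzma-high cells, against 2199 and 3778 CPM in Gzma-low cells, and the erythroid markers to 33.0 and 39.1 CPM against 184 and 211 CPM. Without cells rich in other-lineage markers 10 members passed, as before. Free RNA itself held 12296 and 13671 CPM of Gzma, above the 1% cut, and 610 and 243 cells lay between 0.8% and 1.2%. With a cut of 2%, 15 members passed, and with 0.5%, 8 did.

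The Gzma split was repeated within cycling-marker cells, those with a UMI of Mki67 or Mcm3. Gzma-high cycling-marker cells (811 and 621) carried 6.85 and 9.86 histone UMIs per 10000, against 7.18 and 8.87 in Gzma-low ones (1029 and 982). Of 42 tested members 2 rose and 3 fell, where 8.35% of all 10477 genes rose and 7.2% fell. Hist1h2ap had 143 and 360 CPM in Gzma-high cycling-marker cells, against 100 and 254 CPM in Gzma-low ones (0.61 ± 0.10, edgeR adjusted p = 4.01e-05). Hist1h1b had 113 and 126 CPM, against 89.4 and 80.8 CPM (0.57 ± 0.16, edgeR adjusted p = 0.0118). Hist1h3a had 15 UMIs in Gzma-high ones, against 55 in Gzma-low ones (ratio 0.383, exact 95% interval 0.201 to 0.688). Hist1h2bc had 7 against 41 (0.240, 0.0908 to 0.540) and Hist2h2bb had 4 against 32 (0.176, 0.0451 to 0.495), and both were lower in each library. These calls were fragile: with 1000 UMIs per cell 0 members passed by edgeR, and without the replicate block 1 did. The difference of the Gzma change between cycling-marker cells and other cells was tested as an interaction. It called 0 of 42 members by edgeR, 2 had an unadjusted p under 0.05, and DESeq2 also called 0, where 0.00954% of all genes were called in either direction.

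Cells with a UMI of Tcf7, a transcription factor of naive and memory T cells, numbered 922 and 870. They carried 2.28 and 2.98 histone UMIs per 10000, against 3.34 and 3.91 in cells without (14338 and 13969). H2a genes had 0.506 and 0.828 in Tcf7-detected cells, against 1.01 and 1.56. H4 genes had 0.448 and 0.437, against 0.410 and 0.409. Of 40 tested members 0 rose and 4 fell by edgeR, with 7 at an unadjusted p under 0.05, where 4.35% of all 11254 genes rose and 5% fell. With DESeq2 0 rose and 2 fell.

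Hist1h2ae had 20.97 and 21.46 CPM in Tcf7-detected cells, against 41.9 and 48.9 CPM in undetected cells (-1.11 ± 0.17, edgeR adjusted p = 1.33e-08). Hist1h2ap had 15.9 and 39.9 CPM, against 33.8 and 81.2 CPM (-1.06 ± 0.16, edgeR adjusted p = 6.9e-10). Hist1h1b had 12.3 and 19.2 CPM, against 32.2 and 29.2 CPM (-0.99 ± 0.21, edgeR adjusted p = 6.86e-05). Hist1h1c had 39.1 and 46.8 CPM, against 55.3 and 60.2 CPM (-0.45 ± 0.13, edgeR adjusted p = 0.0131). All 4 were lower in the Tcf7-detected cells of each library. Hist1h1c did not pass with DESeq2 (adjusted p = 0.414) or with cells thinned to 1000 UMIs (edgeR adjusted p = 0.277). Without the replicate block Hist1h2ap and Hist1h1c did not pass, and without the thinning the log2 fold change of Hist1h2ap was -0.04 and did not pass. From the fixed lists, 13 of 16 mitosis genes and 10 of 20 genes of DNA replication fell, and so did E2f1 (-1.38 ± 0.31) and Slbp (-0.28 ± 0.07). The neutrophil-lineage markers summed to 113 and 594 CPM in Tcf7-detected cells, against 1675 and 2769 CPM in undetected cells. Without cells rich in other-lineage markers 4 members still passed. The Tcf7 UMI share was 6.04% and 5.86% of cells, and a cell made wholly of free RNA would show one in 5.25% and 5.97% of cases, so Tcf7 detection itself is close to what free RNA could give.

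Cells with a UMI of Itgae, the integrin chain CD103 of epithelium-resident T cells, numbered 3843 and 3776. They carried 3.03 and 3.54 histone UMIs per 10000, against 3.36 and 3.97 in cells without (11417 and 11063). Of 41 tested members 0 rose and 2 fell by edgeR, with 4 at an unadjusted p under 0.05, where 12% of all 11278 genes rose and 13.5% fell. In a second random thinning 6 of 43 tested members fell. Hist1h3a had 4.16 and 3.53 CPM in Itgae-detected cells, against 6.37 and 7.05 CPM (-0.78 ± 0.22, edgeR adjusted p = 0.0206). Hist1h2ae had 36.6 and 39.9 CPM, against 42.0 and 49.8 CPM (-0.25 ± 0.08, edgeR adjusted p = 0.0329). Both were lower in each library, but neither passed with DESeq2 or without the replicate block, and DESeq2 called 0 members. Without the thinning 7 rose and 5 fell, and Hist1h2ae then had a positive log2 fold change of 0.58. Before thinning, Itgae-detected cells had more UMIs, with medians of 3385 and 4148.5 against 3059 and 3735. The Itgae share was 25.2% and 25.4%, and all-free-RNA cells would show it in 24.6% and 26.6% of cases. The neutrophil-lineage markers summed to 715 and 826 CPM in Itgae-detected cells, against 1872 and 3261 CPM in undetected cells.

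**Figure D5:**
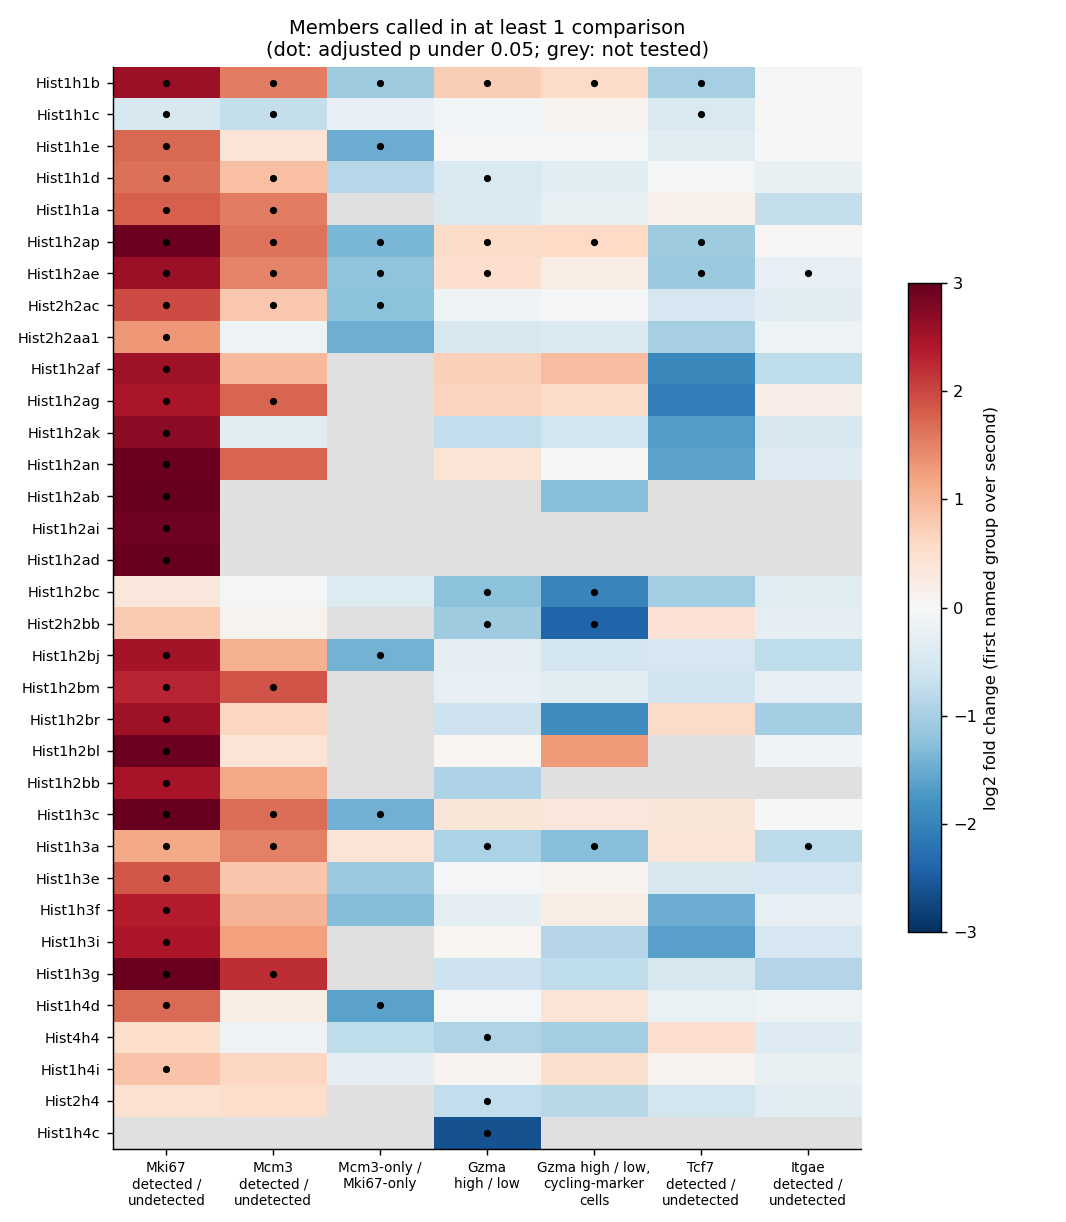
Log2 fold change (colour, ending at -3 and 3) of the members called in at least 1 comparison (rows, by class) in 7 comparisons (columns, first named group over second), with a dot where the adjusted p was under 0.05 and grey where a member was not tested. The first column is red for all rows called there but Hist1h1c, and the Gzma columns hold both colours.

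All of these comparisons cut the same cells, so their values are set side by side and not counted as separate support. Hist1h2ap changed by 2.93 with Mki67 detection, 1.64 with Mcm3 detection, 0.54 with high Gzma, 0.03 with Itgae detection and -1.06 with Tcf7 detection on the log2 scale. Hist1h1b changed by 2.56, 1.55, 0.74, -0.06 and -0.99 in the same order. Hist1h1c changed by -0.47, -0.70, -0.08, 0.02 and -0.45. Hist1h2ap and Hist1h1b did not pass in the Itgae split, and Hist1h1c passed in neither the Gzma nor the Itgae split.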

How the data were processed

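The libraries were made with the 10x Genomics 3' v3 chemistry from pooled CD4 T cells of 5 compartments. There were 2 replicates, and both had an expression library and a hashtag library. Per the submitters' processing notes, the authors used Cell Ranger 3.1.0 and mm10. The deposited values are raw counts of UMIs per gene and barcode, unfiltered. The hashtag tables held 0 hashtag features and were not used here.

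Cells with at least 1000 UMIs and 500 genes, at most 10% mitochondrial UMIs and a Cd3e, Cd3d or Cd3g UMI were kept, and no doublet caller was run. Each cell with at least 1500 UMIs was thinned to 1500 without replacement, and counts were summed per library and class of cell. Barcodes under 100 UMIs served as free RNA. Sums were tested with edgeR 4.0.16 (quasi-likelihood, TMM, filterByExpr, R 4.3.3) over all genes without the splitting genes, with Benjamini-Hochberg adjusted p under 0.05 called. The library entered as a block, because the classes of cell come from the same library. Fits of 4 sums had 1 residual degree of freedom, and the fit of 8 sums (Gzma by cycling-marker cells) had 3. The p-values therefore lean on a spread shared across genes, estimated anew in each fit. For this reason p-values and counts of called members are not on the same scale between splits. On simulated counts the procedure was checked first. Intervals of shares are exact (Clopper-Pearson) and cover counting error only. Values are CPM of the thinned sums, and member levels before the splits are CPM of all T cell UMIs.

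Named members were the leading gene of each class and called members with the largest fold changes (12 for Mki67, 8 for Mcm3, up to 6 elsewhere), with any other called member open to be named. From each of 5 fixed lists, up to 4 called genes with the largest change were named. Npat, H3f3a, H3f3b, H1f0, Nasp and Top2a, and members that did not pass, were named after their values were seen. The members and lists were chosen with earlier results of these data known. The alternatives replaced TMM by RLE, edgeR by DESeq2 1.42.0, or 1500 UMIs by 1000 or by all UMIs. Others repeated the thinning, dropped the low-count filter, the replicate block or the Cd3 rule, set the Gzma cut to 0.5% or 2%, or removed cells with over 0.5% of other-lineage markers. Leaving out barcodes found in both libraries was added after seeing the data.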

Additional observations from a re-analysis of the deposited data

Results flagged for a closer look

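In both libraries, cells with an Itgae UMI had more histone UMIs than cells without among cycling-marker cells and fewer among the other cells. Among cycling-marker cells the values were 7.25 and 10.0 per 10000 in Itgae-detected cells, against 6.97 and 9.01 in undetected cells. Among the other cells they were 2.51 and 2.82, against 2.85 and 3.34. The mean log2 ratio (detected over undetected) was 0.323 higher in cycling-marker cells than in the others for all members, 0.251 higher for H1 genes and 0.407 higher for H2a genes. In libraries 1 and 2 these differences were 0.243 and 0.403 for all members, 0.405 and 0.097 for H1 genes, and 0.142 and 0.671 for H2a genes. Results were flagged here only where the directions were opposite in both libraries, so that agreement is no support. Some ratios were small. The log2 ratio of H1 genes in the other cells of library 2 was -0.010. That of H2a genes in the cycling-marker cells of library 1 was 0.024. Itgae-detected cycling-marker cells held 460 and 572 histone UMIs. The difference between cycling-marker cells and the others was not tested.

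H4 genes showed opposite directions in the Tcf7 split. Among cycling-marker cells they had 0.252 and 0.591 UMIs per 10000 in Tcf7-detected cells (106 and 79 cells), against 0.673 and 0.612 in undetected cells. Among the other cells they had 0.474 and 0.421, against 0.374 and 0.384. The mean log2 ratio differed by -0.973 (cycling-marker cells minus the others), but by -1.76 in library 1 and -0.19 in library 2. The Tcf7-detected cycling-marker cells held 4 and 7 H4 UMIs, and this difference was not tested.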

How the results depend on the processing

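Counts of called members kept within 1.5 times of the values above with RLE size factors, no low-count filter, no Cd3 rule and without other-lineage cells, in all comparisons. Without barcodes shared by both libraries, only the Itgae count left that range (1 in place of 2). Using all UMIs raised the counts to 49 for Mki67, 45 for Mcm3, 33 for Mcm3-only against Mki67-only, 16 for Gzma, 7 for Tcf7, 12 for Itgae and 11 for Gzma within cycling-marker cells. More UMIs then enter, and more cells have a UMI of a splitting gene. For Mki67 these were 1942 and 1943 cells, in place of 808 and 748. The parts of these 2 changes were not separated. Thinning to 1000 UMIs also lets in shallower cells (18972 and 15857 cells in place of 15260 and 14839), so depth and cells change together. It gave 19 for Mki67, 5 for Mcm3, 5 for Mcm3-only against Mki67-only, 2 for Tcf7, 1 for Itgae and 0 for Gzma within cycling-marker cells (by edgeR). DESeq2 gave 7 for Mcm3, 3 for Mcm3-only against Mki67-only, 6 for Gzma, 2 for Tcf7 and 0 for Itgae. A second random thinning gave 6 for Itgae and 2 for Gzma within cycling-marker cells, and a Gzma cut of 0.5% gave 3 there. Without the replicate block the counts were 22 for Mki67, 9 for Mcm3, 5 for Mcm3-only against Mki67-only, 7 for Gzma, 2 for Tcf7, 0 for Itgae and 1 for Gzma within cycling-marker cells. The interaction called 0 members under every alternative. The cause of these shifts was not tested.

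The histone share was 3.57 per 10000 thinned UMIs and 5.27 without thinning, and 3.28 to 3.86 with either library alone. Mki67 was found in 36.6% of histone-high cells on average, in 69.7% without thinning, in 26.1% with 1000 UMIs, and in 34.8% to 38.4% with either library alone. For the members named by the rule and the leading member of each class, 47 of 47 called fold changes kept their direction without replicate 1 and 47 of 47 without replicate 2. Of 16 that were not called, 11 kept it without replicate 1 and 14 without replicate 2. The called members had passed a test on these same 2 libraries, so their agreement was close to fixed in advance. Hist1h1c between Mcm3-only and Mki67-only cells, outside these, was lower in library 1 and slightly higher in library 2. The values from 1 library are log2 ratios of 2 sums, without TMM or a fit, and gave no test. In the Itgae split 4 fold changes changed sign: without thinning, Hist1h1b was at 0.66, Hist1h2ae at 0.58 and Hist1h4d at 0.27, and in the second thinning Hist1h2ap was at -0.23. Hist1h2ap was at -0.038 in the Gzma split within cycling-marker cells at 1000 UMIs. Members with few UMIs limit what can be detected, and a member that did not pass is not shown to be unchanged.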
